A study of Mus musculus with 4 samples.

Results

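The 10 claudin genes described here are Cldn1, Cldn2, Cldn3, Cldn4, Cldn6, Cldn7, Cldn8, Cldn12, Cldn15 and Cldn23. They were picked by symbol from the 31053 Ensembl gene identifiers of a count table of sorted small intestinal crypt cells and of a count table of organoids, and all 10 have a row in both. The sorted cells came from RetEGFP/+ mice, in which EGFP is knocked into the Ret locus, so that fluorescence marks cells expressing Ret, the receptor of the growth factor GDNF. From 3 male mice, 5 Ret-EGFP+ and 5 non-EGFP libraries of 1000 cells each were made, and every sorted cell, of either group, carried that allele. The organoids were grown from small intestinal crypts of wild-type C57BL/6J mice for 4 days in medium with EGF, Noggin, R-spondin 1 and n-acetylcysteine, and with the inhibitor Y-27632 at the start. Of 12 organoid libraries, 6 had this medium alone (control) and 6 also had GDNF and its co-receptor GFRA1 at 500 ng/mL each (GDNF). They came from 3 experiments with 2 control and 2 GDNF libraries each, and each experiment used 1 mouse, a female in experiments 1 and 2 and a male in experiment 3. The mice were 2 to 10 months old. The mouse of each sorted library is not given, so libraries of the same mouse entered the tests as separate replicates, and their p values may be too small. In organoids the 2 libraries of the same experiment and treatment entered as separate replicates too, though they share a mouse.

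RNA was read at the 3′ end of transcripts, so a level here is a count of 3′ reads per gene and is not divided by gene length. Total counts were 1113006 to 4717549 per sorted library and 1042028 to 2010359 per organoid library. The unit of level is CPM, in which counts are scaled to the size of their library, here after TMM scaling, an adjustment for differences in composition. The sort was checked on fixed marker lists: all 8 markers of enteroendocrine cells passed as higher in Ret-EGFP+ libraries (summed level 20174 to 28072 CPM against 1013 to 3452), while all 7 goblet, 6 Paneth, 6 tuft and 6 stem cell and proliferation markers and 5 of 6 markers of intraepithelial lymphocytes were lower. Paneth markers alone summed to 172840 to 440149 CPM in non-EGFP libraries and to 2929 to 7205 CPM in Ret-EGFP+ libraries. Of 8 enterocyte markers 2 were higher and 6 lower, neither of 2 tested endothelial markers passed, and the 1 mesenchymal marker that could be tested was higher. Of 5 tested markers of fetal-like epithelium 2 were higher and 1 lower. Of all genes tested in sorted cells 21.5% were higher and 21.4% lower in Ret-EGFP+ libraries. These are bulk samples, so fewer cells of a type and less RNA per cell cannot be told apart in any value below.

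Claudins are membrane proteins that polymerise into the strands of tight junctions, the belt that joins neighbouring epithelial cells near the lumen. Some, such as claudin-3 and claudin-4, tighten the paracellular space, and others form pores in it: claudin-2 and claudin-15 conduct small cations and are the main paracellular sodium channels of the mouse small intestine. Which claudins a cell makes therefore sets how leaky, and for which ions, its junctions are.

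On GRCm38 the genes lie at chr16:26356642-26371841 (Cldn1, minus strand), chrX:139800828-139811386 (Cldn2, plus), chr5:134986214-134987472 (Cldn3, plus), chr5:134945119-134946934 (Cldn4, minus) and chr17:23679249-23682446 (Cldn6, plus). The others lie at chr11:69964779-69967885 (Cldn7, plus), chr16:88560828-88563183 (Cldn8, minus), chr5:5489537-5514958 (Cldn12, minus), chr5:136966616-136975858 (Cldn15, plus) and chr8:35824712-35826559 (Cldn23, minus). Cldn3, Cldn4 and Cldn8 are annotated with a single exon. Cldn3 and Cldn4 are neighbours on opposite strands, their starts facing each other across 39279 bases. The last 40 bases of Cldn3 overlap Wbscr25 on the other strand, which has 10 counts in the sorted and 9 in the organoid libraries in total. Cldn6 runs toward Cldn9 on the other strand, with 137 bases between their annotated ends, and Cldn7 toward Elp5 with 336 bases between them. Whether counting used the strand is not given in the sources used here, so a part of the counts of these neighbours cannot be told apart with certainty. Elp5 has 1535 counts in the sorted and 1154 in the organoid libraries in total. Fis1 ends 381 bases before Cldn15 on the same strand, with 10229 counts in the sorted and 7916 in the organoid libraries.

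Promoter windows of 250 bases before and 50 bases from the RefSeq start site (GRCm38.p6) were at hand for 8 of the 10 genes, 11 windows in all. The stretches below are shown because they belong to the claudins that differed most in level and hold a short motif, set in capitals, which is the AP-1 motif TGANTCA in Cldn4 and Cldn15 and the CDX motif TTTATG in Cldn2. Of the motifs searched, only matches to these are shown.
Cldn4, chr5:134947155-134947184, minus strand: tctaggctggTGACTCAgtgtctgtgtccc
Cldn4, chr5:134947074-134947103, minus strand: atactggcgggTGACTCAggggcccaggac
Cldn15, chr5:136967644-136967673, plus strand: ctggtgacagcTGAGTCAgagacaggccac
Cldn2, chrX:139800558-139800587, plus strand: gctgtgTTTATGaaggcttccttcctgctg
The first base of the AP-1 motif lay at positions -240 and -158 from the start site of Cldn4 and at -214 from that of Cldn15, negative positions being upstream. That of the CDX motif lay at -244 from the start site of Cldn2. The RefSeq start site used for Cldn15 lies inside the gene span given above. The Cldn15 stretch is thus upstream of that start site but within the annotated gene. Searched on both strands, TGANTCA was in 2 of the 11 claudin windows and in 7.81% of 32851 windows of this length, and TTTATG was in 1 and in 11.9%. AACNNGTT, the core of grainyhead-like sites, and CAAAGTC, of HNF4 sites, were in none of the 11 claudin windows and in 4.2% and 4.44% of all. GGGCGG, of Sp1 and KLF sites, was in 8 of 11 and in 35.7% of all. The claudin windows with GGGCGG include those of Cldn3, Cldn4 and Cldn15, whose matches are not shown. The Cldn12 windows among them overlap and hold the same match. A match is a description of letters, not a site or a cause. Cldn4 and Cldn15, which share TGANTCA, differed between the sorted groups in opposite directions, as given next.

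The first comparison asked how claudin mRNA differed between Ret-EGFP+ crypt cells and the other crypt cells. In CPM after TMM scaling, which is not a plain share of all counts, Ret-EGFP+ cells held less claudin mRNA in sum and a different mixture of it. The pore claudins Cldn15 and Cldn2 were far lower, the sealing claudin Cldn3 was lower by less, and Cldn4 was far higher. By edgeR's quasi-likelihood test with Benjamini-Hochberg adjustment at 0.1, 2 of the 10 claudins were higher in Ret-EGFP+ cells (Cldn4 and Cldn1), 5 were lower (Cldn15, Cldn3, Cldn2, Cldn8 and Cldn7) and 3 did not pass (Cldn6, Cldn12 and Cldn23). Among all 13672 genes tested, 21.5% were higher and 21.4% were lower, so calls of claudins in either direction are read against a background in which a large part of all genes was called. The median log2 fold change of the 10 claudins was -0.34, that of all genes tested 0.11. For 4 claudins (Cldn2, Cldn3, Cldn4 and Cldn15) the groups did not overlap, as for 23.1% of all genes tested.

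**Figure D1:**
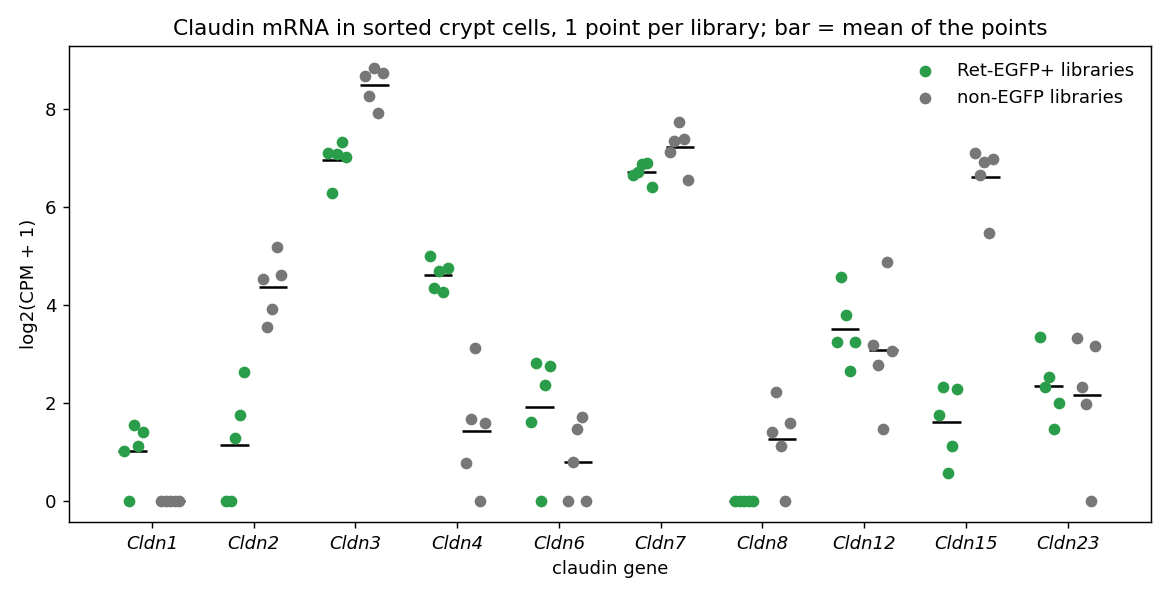
Level of each claudin in the 10 sorted libraries as log2(CPM + 1), 1 point per library, with a bar at the mean of the points (5 libraries a group). The groups stand apart without overlap for Cldn2, Cldn3, Cldn4 and Cldn15, and Cldn4 is the only one of these that is higher in Ret-EGFP+ libraries.

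The sodium pore claudin-15 had the largest difference that did not rest on a group at 0. Cldn15 was at 2.37, 4.01, 0.479, 1.18 and 3.83 CPM in Ret-EGFP+ libraries 1 to 5. In non-EGFP libraries 1 to 5 Cldn15 was at 136, 99.7, 119, 43.2 and 125 CPM. The lowest non-EGFP library thus lay about an order of magnitude above the highest Ret-EGFP+ library. The group means were 2.37 ± 1.57 and 105 ± 36.8 CPM (SD, n = 5 libraries each), and the log2 fold change was -5.40 (SE 0.42, edgeR adjusted p = 1.53e-10).

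Cldn2, the other cation pore, is known for its place in the crypt rather than on the villus. In Ret-EGFP+ libraries 1 to 5 it was at 0, 0, 1.44, 2.36 and 5.20 CPM, and in non-EGFP libraries at 22.1, 10.6, 14.1, 35.2 and 23.5 CPM. Of the 26 Cldn2 counts in Ret-EGFP+ cells, 19 came from library 5, the only one sequenced in a pool of its own with non-EGFP library 5. The means were 1.80 ± 2.15 and 21.1 ± 9.57 CPM, a log2 fold change of -3.39 (SE 0.71, edgeR adjusted p = 0.000540). Without Ret-EGFP+ library 5 it was -4.46.

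Cldn3, a sealing claudin, was the most abundant claudin in every group by mean. It was at 137, 76.8, 134, 160 and 129 CPM in Ret-EGFP+ libraries 1 to 5 and at 409, 305, 459, 242 and 424 CPM in non-EGFP libraries. All 5 Ret-EGFP+ values lay below all 5 non-EGFP values. The means of 127 ± 30.5 and 368 ± 90.6 CPM differed by a log2 fold change of -1.53 (SE 0.22, edgeR adjusted p = 5.14e-06). Scaled by total counts alone, without TMM, it was -0.98 (SE 0.23).

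Cldn7, which lies along the basolateral membrane and binds EpCAM, showed a small difference with overlapping groups. Ret-EGFP+ libraries 1 to 5 had 99.3, 104, 117, 118 and 83.8 CPM, and non-EGFP libraries had 139, 161, 212, 167 and 92.4 CPM. Only non-EGFP library 5 lay within the range of the Ret-EGFP+ libraries. The log2 fold change of -0.56 (SE 0.22, edgeR adjusted p = 0.0560) was past the threshold by a small margin. Scaled by total counts alone, which moved the median of all genes from 0.11 to 0.66 and the calls from 2940 higher and 2920 lower to 4695 higher and 1828 lower, it was 0.03. With DESeq2, an adjusted p = 0.108, with DESeq2 size factors in edgeR (0.110) and without non-EGFP library 1, non-EGFP library 3, Ret-EGFP+ library 5 or the libraries of plate 3 (0.122, 0.269, 0.128 and 0.499) Cldn7 did not pass.

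Cldn4, a sealing claudin that in the mouse kidney also shapes anion passage, went the other way. It was at 30.8, 19.4, 24.9, 18.3 and 26 CPM in Ret-EGFP+ libraries 1 to 5. The non-EGFP libraries had 0.705, 2.18, 7.64, 0 and 1.98 CPM. Every Ret-EGFP+ library was above every non-EGFP library, and non-EGFP library 3 stood above the other 4 of its group. With means of 23.9 ± 5.14 and 2.50 ± 3.01 CPM the log2 fold change was 3.25 (SE 0.60, edgeR adjusted p = 0.000138), and 4.10 without non-EGFP library 3.

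Cldn1, a sealing claudin best known from the skin barrier, was at the edge of detection. It had 3, 0, 4, 2 and 6 counts in Ret-EGFP+ libraries 1 to 5 and 0 in every non-EGFP library. With the non-EGFP group as a whole set to a floor of 3 counts, its level was 5.52-fold higher. That ratio is not a lower bound, since the edgeR 95% interval of the Cldn1 log2 fold change ran from 1.02 to 8.19. The edgeR adjusted p was 0.0452. It was 0.138 with DESeq2 and 0.120, 0.272 and 0.127 without the libraries of plate 2, 3 or 4, and the stricter filter filterByExpr removed the gene.

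Cldn8, a sealing claudin of the distal nephron and colon, was the mirror image. Its counts were 7, 10, 2, 0 and 7 in non-EGFP libraries 1 to 5, and 0 in all 5 Ret-EGFP+ libraries. With the same floor for the Ret-EGFP+ group its level was 7.85-fold lower (edgeR adjusted p = 0.0263). This ratio is no bound either, as the 95% interval of the Cldn8 log2 fold change ran from -8.78 to -1.56. Without the 6 libraries of plate 3 the adjusted p was 0.210, and filterByExpr removed Cldn8 as well. Both genes show presence against 0 counts at very low levels, at most 3.64 CPM in any library.

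The remaining claudins did not pass. Cldn6, a claudin of embryonic epithelia, had 6, 9, 0, 7 and 21 counts in Ret-EGFP+ libraries 1 to 5, and non-EGFP libraries 1 to 5 had 0, 2, 3, 2 and 0. Its log2 fold change was 2.09 with a 95% interval from -0.55 to 4.74 (edgeR adjusted p = 0.217). It passed with total counts alone (adjusted p = 0.0914) and without plate 3 (0.0471). Cldn12, which has been tied to calcium passage, spanned 5.30 to 22.7 CPM among the Ret-EGFP+ libraries and 1.76 to 28.4 CPM among the others, with an interval of its log2 fold change from -1.01 to 1.50. Cldn23 spanned 1.77 to 9.15 and 0 to 8.93 CPM, with an interval from -1.72 to 1.47. The intervals of Cldn12 and Cldn23 leave room for differences of more than a doubling either way.

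The sorted libraries stood on plate 2 (1 of each group), plate 3 (3 of each) and plate 4 (1 of each). Within every plate Cldn2, Cldn3, Cldn7, Cldn8 and Cldn15 were lower and Cldn1, Cldn4, Cldn6 and Cldn12 higher in the Ret-EGFP+ mean. For Cldn15 the plate means were 2.37 against 136 CPM, 1.89 against 87.2 CPM and 3.83 against 125 CPM on plates 2, 3 and 4. For Cldn4 they were 30.8 against 0.705 CPM, 20.9 against 3.28 CPM and 26 against 1.98 CPM.

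Summed over the 10 genes, claudin mRNA was 281 ± 29.4 CPM in Ret-EGFP+ libraries (237 to 312), and non-EGFP libraries had 668 ± 117 CPM (518 to 819), without overlap. As shares of the summed claudin counts the mixture differed as well. Cldn3 made up 44.8 ± 7.30% of the claudin counts in Ret-EGFP+ libraries against 54.5 ± 5.73% in the others, with overlap. Cldn7 took 31.4 to 43.9% in Ret-EGFP+ against 13.5 to 32.2% in non-EGFP libraries. The share of Cldn15 was 0.896 ± 0.659% in Ret-EGFP+ libraries against 15.3 ± 4.25% in the others, and that of Cldn4 was 8.55 ± 1.82% and 0.338 ± 0.364%. The pore claudins thus held a small part, and Cldn4 a larger part, of the claudin mRNA of Ret-EGFP+ cells. The non-EGFP group is a mixture of crypt cell types, whose marker sums are given above, and the part of that mixture in the claudin differences was not tested.

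**Figure D2:**
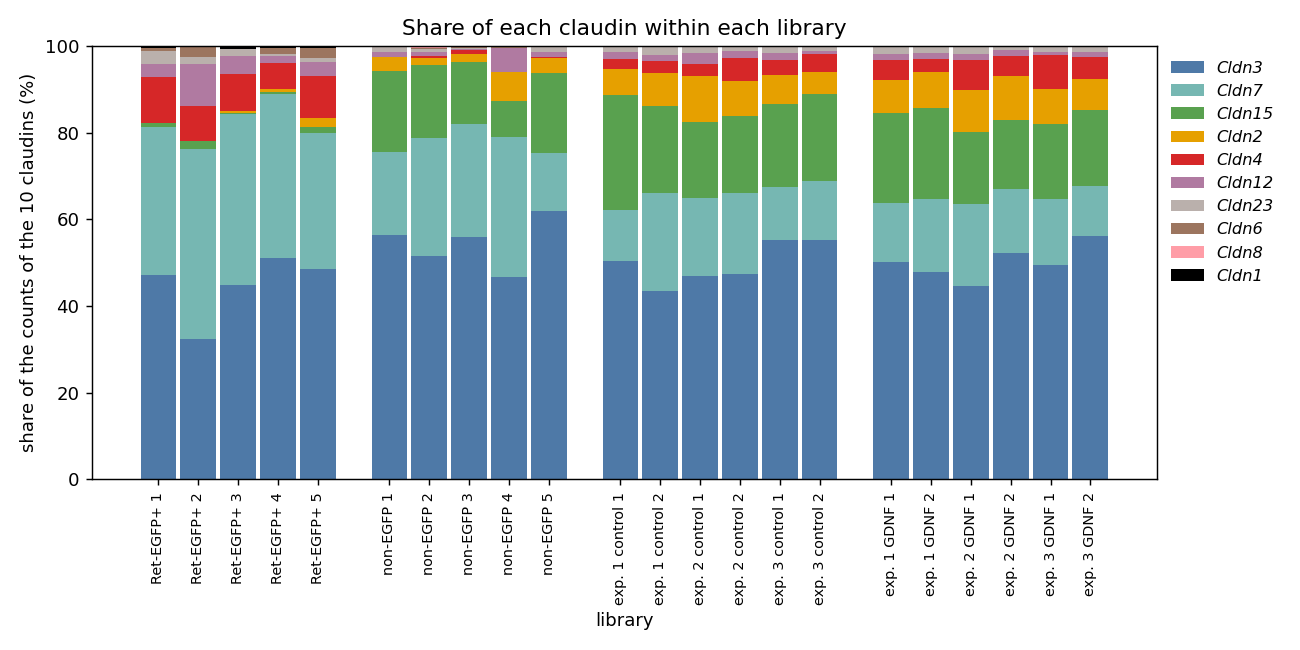
Share of each claudin in the summed counts of the 10 claudins, in percent, 1 bar per library, for 5 Ret-EGFP+, 5 non-EGFP, 6 control and 6 GDNF libraries. Cldn15 holds 0.161 to 1.69% of the sum in Ret-EGFP+ libraries against 8.33 to 18.7% in the non-EGFP ones, and Cldn4 holds 5.85 to 10.6% and 0 to 0.934%.

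By mean level the order in Ret-EGFP+ cells was Cldn3, Cldn7, Cldn4, Cldn12, Cldn23, Cldn6, Cldn15, Cldn2, Cldn1 and Cldn8. Only the step from Cldn7 to Cldn4 had ranges that did not overlap, and Cldn3 was above Cldn7 in 4 of 5 libraries. In non-EGFP cells the order was Cldn3, Cldn7, Cldn15, Cldn2, Cldn12, Cldn23, Cldn4, Cldn8, Cldn6 and Cldn1. There the steps from Cldn3 to Cldn7 and from Cldn15 to Cldn2 had no overlap. From Cldn2 down, neighbours overlapped. In both organoid groups the order began with Cldn3, Cldn15, Cldn7, Cldn2 and Cldn4. The ranges of Cldn15 and Cldn7 overlapped, and Cldn15 was above Cldn7 in 3 of 6 control and 5 of 6 GDNF libraries.

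The second comparison asked what GDNF with GFRA1 did to claudin mRNA in organoids. Of the claudins, Cldn4 alone passed, and it rose. Cldn1 had 0 counts in all 12 libraries, which allows a level of up to 0.164 CPM over them, and Cldn6 had 2 counts in total, so 8 of the 10 could be tested. In the model with the experiment as a block 1 claudin was higher, 0 were lower and 7 did not pass. Among all 12220 genes tested 0.532% were higher and 0.123% lower with GDNF, which is 65 and 15 genes. Without GDNF library 2 of experiment 2 these were 41 and 8, and without control library 2 of experiment 1 they were 65 and 27. The median log2 fold change of the 8 claudins was 0.07 and that of all genes 0.01. At an unadjusted p under 0.05, 2 claudins were higher (Cldn4 and Cldn2) and 0 lower, and DESeq2 called 0 claudins lower too.

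**Figure D3:**
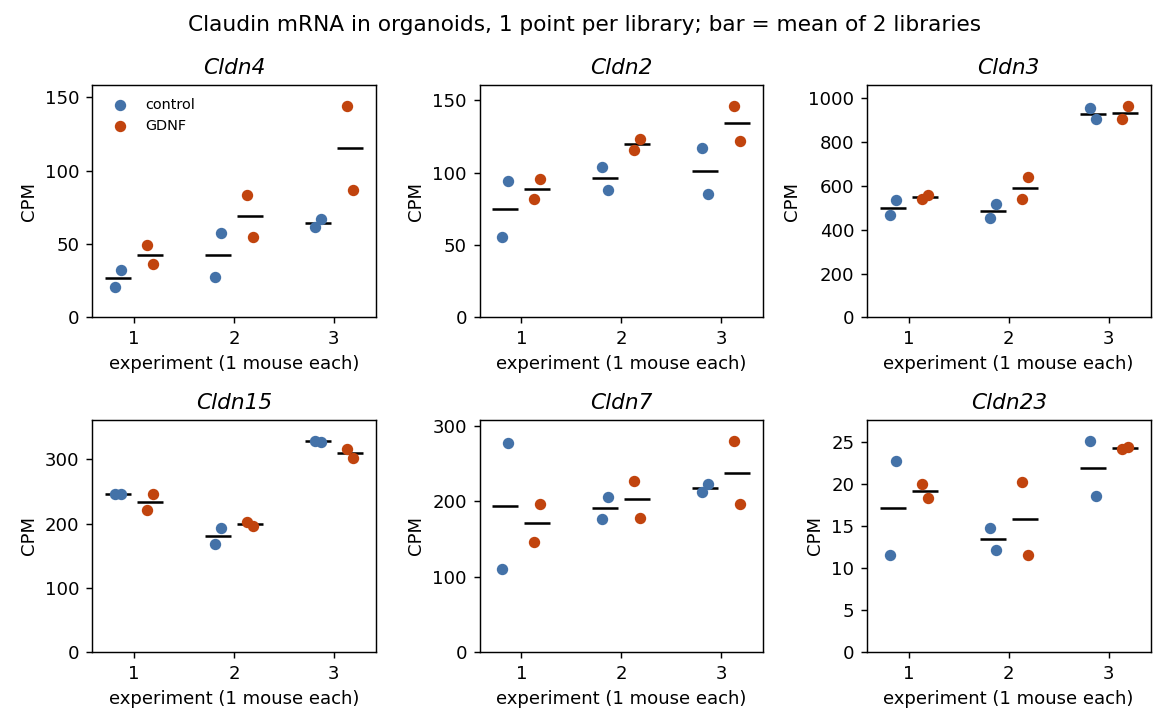
Level of 6 claudins in the organoid libraries in CPM, by experiment (1 mouse each), 1 point per library, with a bar at the mean of 2 libraries. Cldn4 means are 26.7, 42.5 and 64.5 CPM in control and 42.6, 69.3 and 115 CPM in GDNF organoids of experiments 1, 2 and 3.

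Cldn4 was at 21.1 and 32.3 CPM in the control and 49.1 and 36.1 CPM in the GDNF libraries of experiment 1. In experiment 2 the values were 27.3 and 57.6 CPM (control) and 83.7 and 54.9 CPM (GDNF). Experiment 3 had 61.9 and 67.0 CPM (control) and 144 and 86.6 CPM (GDNF). Both GDNF libraries lay above both controls in experiments 1 and 3, and the ranges overlapped in experiment 2. The control level itself differed between experiments, so that the groups overlapped when pooled. The log2 fold change was 0.73 (SE 0.15, edgeR adjusted p = 0.00579), and by experiment it was 0.60, 0.69 and 0.84 (SE 0.29, 0.27 and 0.23). No difference between experiments was detected for Cldn4 (edgeR interaction, adjusted p = 0.996). The control library at 32.3 CPM in experiment 1 and the GDNF library at 144 CPM in experiment 3 were sequenced in pool S3. So were the experiment 2 libraries at 57.6 CPM (control) and 83.7 CPM (GDNF), and the other organoid libraries were in pool S4. Each S3 library lay above the S4 library of the same experiment and treatment. The part of the pool in the values by experiment was not tested. With the pool as a covariate the log2 fold change was 0.70 (SE 0.13, edgeR adjusted p = 0.000244). With no block for the experiment the log2 fold change was 0.77 at an adjusted p of 1.00, and without experiment 3 it was 0.63 at 0.232.

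For the difference of the GDNF effect between experiments, 0 of the 8 claudins passed, also at an unadjusted p under 0.05 and with DESeq2. Over all genes 0.0491% passed. Cldn8 had the smallest unadjusted p, 0.110. Its counts were too few to read, 0 to 3 in any organoid library.

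Cldn2 had 55.7 to 117 CPM in control libraries (median 91.2) and 82.1 to 146 CPM in GDNF libraries (median 119). Its log2 fold change was 0.31 (95% interval 0.08 to 0.54, edgeR adjusted p = 0.455). The estimates in experiments 1, 2 and 3 were 0.20, 0.32 and 0.41. It passed at 0.0831 without control library 2 of experiment 1, 1 of the 2 libraries for which the oligo number in the deposited sample sheet differs from the library number. The other such library is Ret-EGFP+ library 2, and leaving it out changed no call of the 10 claudins in sorted cells.

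Cldn3 ran from 454 to 955 CPM in control (median 524) and 538 to 963 CPM in GDNF libraries (median 598). Its high values came from experiment 3, whose means were 928 and 933 CPM. The interval of its log2 fold change was -0.03 to 0.31. For Cldn15 (168 to 329 and 196 to 316 CPM) the interval was -0.19 to 0.17, and for Cldn7 (110 to 277 and 146 to 280 CPM) it was -0.25 to 0.25. Those for the less abundant Cldn12 and Cldn23 were -0.64 to 0.18 and -0.26 to 0.53, and that for Cldn8 was -1.95 to 1.23. For Cldn3, Cldn7 and Cldn15 these intervals thus bound any GDNF effect in these organoids to well under a doubling, and for Cldn8 they do not. They count the 2 libraries of the same mouse and treatment as separate replicates. With libraries summed per experiment and treatment, the log2 fold changes of Cldn3, Cldn7 and Cldn15 were 0.13, -0.07 and -0.02 (SE 0.08, 0.09 and 0.09).

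The sum of the 10 claudins was 1263 ± 343 CPM in control and 1369 ± 318 CPM in GDNF libraries (SD, n = 6), and the ranges (929 to 1731 and 1074 to 1828 CPM) overlapped. Cldn4 made up 3.45 ± 1.12% of the claudin counts in control and 5.34 ± 1.76% in GDNF libraries. Cldn15 held 20.1 ± 3.31% and 18.2 ± 2.11%, and Cldn2 held 7.42 ± 1.93% and 8.43 ± 1.15%. The pore claudins were thus a substantial part of the mixture in both organoid groups.

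**Figure D4:**
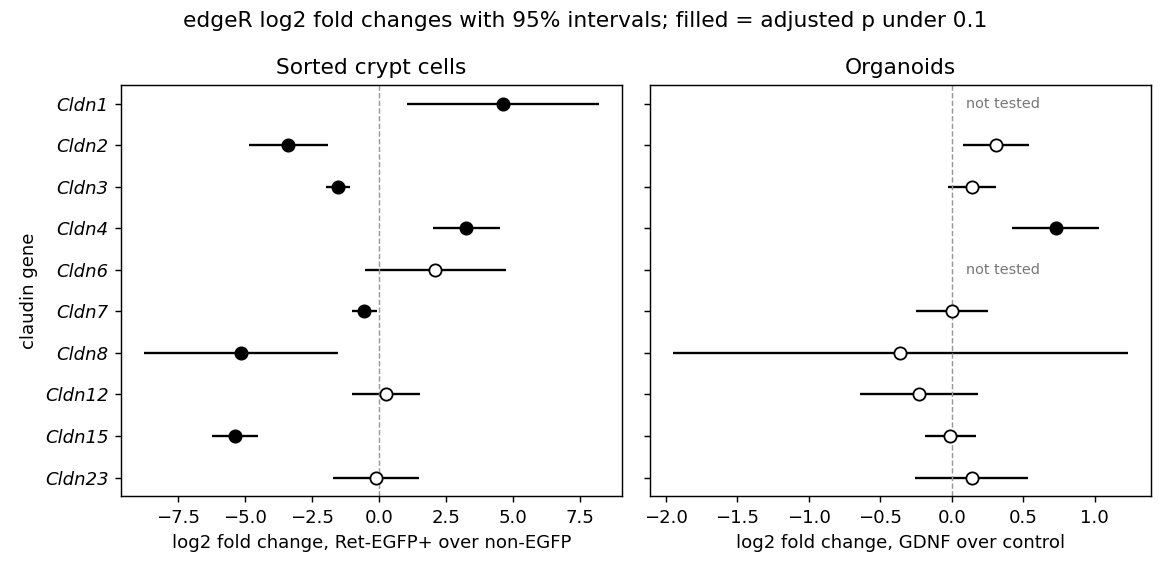
Log2 fold changes of the claudins from edgeR with 95% intervals, Ret-EGFP+ over non-EGFP cells on the left and GDNF over control organoids on the right, on different scales, filled where the adjusted p is under 0.1. Cldn4 is above 0 in both panels (3.25 and 0.73), and for Cldn1 and Cldn6 no organoid value was fitted.

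Cell type markers also moved with GDNF. Of the markers of fetal-like and injury-induced epithelium, 5 of 7 tested were higher (Ly6a, Clu, Anxa1, Anxa3 and Krt7), with a summed level of 293 to 666 CPM in control and 495 to 882 CPM in GDNF libraries. Of 7 goblet markers 4 were higher, of 6 Paneth markers 3, and of 6 stem cell and proliferation markers 3. Of all genes tested 0.532% were higher and 0.123% lower with GDNF. None of the 7 enteroendocrine, 8 enterocyte, 5 tuft, 1 endothelial and 4 mesenchymal markers tested passed (at an unadjusted p under 0.05, 2 enteroendocrine, 1 enterocyte and 1 mesenchymal), and lymphocyte markers were at 0 to 0.664 CPM in sum. The part of these markers in the rise of Cldn4 was not tested. The enteroendocrine list holds none of Tac1, Tph1, Pyy and Cck, which the paper reports as significantly higher in organoids with GDNF.

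With the mean of each experiment removed, the genes whose level followed Cldn4 most closely over the 12 organoid libraries were Usp39 (Pearson r = 0.96), Rtn4 (0.92), Serinc2 (0.92), Pml (0.91) and Phlda1 (0.90). For Cldn2 they were Gas6 (0.91), Hmgb1, Eef1g and Nono (0.90 each) and Cd24a (0.89). For Cldn3 they were Kpna4 (0.94), Rab25 (0.92), and Chmp5, Slc1a5 and Hpd (0.89 each). These are the top 5 of 8935 genes in each case, a description with no test. Treatment, depth and sequencing pool were not removed and differed between libraries of the same experiment. Of the 15, Cd24a alone was called with GDNF (log2 fold change 0.45, edgeR adjusted p = 0.00754).

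The tables hold 23 further claudin genes, of which 19 had 0 counts in all 22 libraries, among them Cldn5, the claudin of endothelium. Cldn9, which in the mouse is known from the inner ear, had 3, 15, 0, 9 and 54 counts in Ret-EGFP+ libraries 1 to 5 and 0, 0, 1, 0 and 1 in non-EGFP libraries. That is a count ratio of 44.7 (95% counting interval 12.0 to 376) and an edgeR log2 fold change of 4.89 (SE 1.31, adjusted p = 0.00543). The counting interval leaves out the spread between libraries and takes each count as a separate molecule, which is not certain here. Of the 81 Ret-EGFP+ counts 54 were in library 5, without which the log2 fold change of Cldn9 was 4.21, and without non-EGFP library 3 it was 5.56. Cldn9 and Cldn6, which face each other tail to tail, both had 0 counts in Ret-EGFP+ library 3. Cldn9 was highest in library 5 (14.8 CPM) and Cldn6 in library 2 (6.01 CPM, against 5.75 CPM in library 5). Cldn14 had 9 counts, all in non-EGFP library 3, and its edgeR adjusted p of 0.0921 rests on that library. It lost its call in 12 of the 18 alternatives that could be fitted, among them leaving out any of the 5 Ret-EGFP+ libraries. In organoids Cldn9 (13 counts) and Cldn18 (32 counts), a claudin of stomach and lung, did not pass, and Cldn10 and Cldn14 had 1 count each.

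The proteins that build tight junction strands beside claudins form the first of 5 lists of related genes in sorted cells, whose counts stand beside the 21.5% of all genes tested that were higher and the 21.4% that were lower in Ret-EGFP+ cells. Of 10 strand proteins tested, 5 were higher and 1 was lower (median log2 fold change 0.69, all genes 0.11). Lsr, an angulin that marks corners where 3 cells meet, was at 264 CPM against 98.6 CPM (log2 fold change 1.42, edgeR adjusted p = 1.21e-05). Marveld2, the tricellulin that angulins recruit there, was at 14.9 against 3.57 CPM (1.96, adjusted p = 0.00905), and the angulins Ildr1 (23.2 against 8.41 CPM) and Ildr2 (39 counts against 0) were higher too. Cxadr, an adhesion molecule of the junction, was the 1 that was lower (-1.04, adjusted p = 0.0371), and Marveld3 was the fifth that was higher. Ocln, occludin, was at 31.2 and 19.8 CPM and did not pass (adjusted p = 0.153).

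Of 16 plaque and polarity proteins, which tie strands to the cytoskeleton, 4 were lower and 12 did not pass, a share lower that is near the 21.4% of all genes tested. The 4 were Ybx3, a transcription factor held at the plaque (-1.78, edgeR adjusted p = 9.40e-07), the scaffolds Tjp3 (-1.91, 0.000283) and Magi1 (-2.06, 0.00813), and the polarity protein Mpp5 (-0.88, 0.0231). Tjp1, the scaffold ZO-1, was at 15.7 CPM against 7.43 CPM and did not pass (edgeR adjusted p = 0.103). Among 5 claudin-binding proteins and their proteases, Epcam, the partner of claudin-7, was lower at 706 against 1397 CPM (log2 fold change -0.98, edgeR adjusted p = 3.18e-05), as were the protease Prss8 (-1.33, 0.00607) and, by a small margin, the protease inhibitor Spint2 (-0.40, 0.0881), while the inhibitor Spint1 was higher (1.46, 0.000329). Spint2 lost its call in 8 of 10 fits that left out 1 library and kept it only without non-EGFP library 4 or Ret-EGFP+ library 5.

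Of 14 genes of adherens junctions and desmosomes, 5 were lower (all genes, 21.4%), among them Afdn (-0.90, edgeR adjusted p = 0.00149), Dsc2 (-1.90, 0.00188), Nectin1 (-3.08, 0.00279) and Nectin3 (-1.23, 0.00456), and the 1 that was higher (all genes, 21.5%) was Cdh1, E-cadherin (0.59, 0.0525). Without non-EGFP library 5 Cdh1 did not pass (edgeR adjusted p = 0.125), nor without plate 2 (0.253) or plate 4 (0.140). Of 13 transcription factors of the intestinal epithelium, 5 were lower (all genes, 21.4%) and 8 did not pass. The 5 included Klf5 (-0.96, edgeR adjusted p = 0.000254), Klf4 (-1.57, 0.00247), Vdr, the vitamin D receptor (-1.02, 0.00853), and Cdx1 (-1.21, 0.0107). In organoids none of the tested genes of these 5 lists passed with GDNF in edgeR. Their log2 fold changes lay between 0.00 and 0.55 for strand proteins, between -0.29 and 0.38 for plaque proteins, between -0.14 and 0.13 for claudin-binding proteins, between -0.17 and 0.45 for adherens junctions and desmosomes and between -0.31 and 0.63 for transcription factors. At an unadjusted p under 0.05 there was 1 plaque protein and 1 transcription factor and none in the other lists. By this test Cldn4 was the 1 gene among the claudins and these lists that passed in organoids.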

How the data were processed

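RNA of 1000 sorted cells per library, or of organoids, was sequenced from the 3′ end. Per the labels and methods, the authors aligned reads to GRCm38 with STAR 2.7.8a and deposited raw counts per gene, made with BRB-seqTools and described as counts of unique identifiers of 8 nucleotides. These can take 65536 sequences, and 32 values of the sorted table are above that, so not every value can be such a count, while the largest claudin count is 1935. Groups were read from the sample sheets deposited with the counts. A row for a reporter was left out, no count column was unused (0), and 30934 identifiers matched a symbol. Libraries were numbered in table order within a group.

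edgeR 4.0.16 was run on genes with 5 or more counts in total and a mean normalised count no lower than 1 (TMM, quasi-likelihood; limma 3.58.1, R 4.3.3), with Benjamini-Hochberg adjustment over all genes and a threshold of 0.1. SE is the absolute log2 fold change over the square root of F. The experiment was a block for organoids, since an experiment is 1 mouse. Deviations of libraries of the same experiment correlated at 0.03 to 0.58 and those of different experiments at -0.55 to 0.18. A group at 0 was given a floor of 3 counts over the group. Intervals of count ratios cover counting error only. Alternatives were DESeq2 1.42.0, other scalings, filters and thresholds, plate or pool covariates, and libraries, plates or experiments left out. The test was checked on simulated counts. All claudins were named, with up to 4 genes of each list by smallest p, up to 2 of the highest mean among those not called, and the 5 genes most like each of 3 claudins with a mean of at least 10 counts. Marveld3, Cdh1, Cxadr and the marker genes were named after their values were seen. The members and lists were chosen with earlier results of these data known.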

Additional observations from a re-analysis of the deposited data

Results flagged for a closer look

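In 4 of the 36 groups of libraries examined, 1 library stood apart from the rest of its group, by a rule that for continuous values sets a library apart by chance in about 1 of 20 groups. Non-EGFP library 3 had 7.64 CPM of Cldn4, and the other 4 non-EGFP libraries had 0 to 2.18 CPM. The difference from Ret-EGFP+ cells was larger without it, as given above. Non-EGFP library 4 had 28.4 CPM of Cldn12 against 1.76 to 7.99 CPM in the others. Cldn6 was at 0.664 CPM in control library 2 and at 0.498 CPM in GDNF library 2 of experiment 3 and at 0 in the other organoid libraries, and each of these values is a single count among zeros, for which that rate does not apply.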

How the results depend on the processing

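Over the alternatives tried, 357 claudin values kept their direction and side of the threshold, 14 lost their call, 3 gained it and 23 changed sign, among which Cldn7 in sorted cells with total counts alone also lost its call. For the junction and other genes named, 457 were kept, 41 lost their call and 1, Spint2, changed sign. Mpp5, Prss8, Afdn, Klf5, Vdr, Cdx1 and Cxadr did not pass with total counts alone, Mpp5, Afdn and Cxadr did not pass without plate 3, and Ildr1 did not pass without plate 4. In sorted cells Cldn2, Cldn3, Cldn4 and Cldn15 kept their call in every alternative. The claudins called higher numbered 1 instead of 2 with DESeq2, with filterByExpr and without plate 2 or plate 4, Cldn1 being the one lost, and those called lower numbered 3 instead of 5 without plate 3. Leaving out each library in turn gave 2 higher and 4 to 5 lower. With total counts alone the log2 fold change was 0.03 for Cldn7, 0.40 for Cldn23 and 0.16 for Spint2, the median of all genes being 0.66. Without plate 4 that of Cldn23 was 0.24. Leaving out libraries spread Cldn12 over -0.14 to 0.96 and Cldn23 over -0.55 to 0.24. In organoids the claudins called higher numbered 0 with no replicate block and 0 without experiment 3, and 1 to 2 when libraries were left out in turn. Without the block 6 genes of all were higher and 1 lower, instead of 65 and 15. Without experiment 2 they were 31 and 4, and without experiment 3 34 were higher. Leaving out libraries gave 41 to 69 higher and 8 to 27 lower. The sign of values near 0 changed: Cldn7 was at 0.00 with DESeq2, 0.01 with total counts, 0.02 with no block, 0.09 without experiment 1 and 0.01 with the sequencing pool as covariate, and at -0.12 to 0.22 when libraries were left out. Cldn15 was at 0.00 with total counts, 0.01 without experiment 1 or experiment 3, and at -0.05 to 0.01 when libraries were left out, and Cldn8 was at 0.31 without experiment 3. Of all sorted genes 1956 were higher with filterByExpr, which tested fewer genes. Other causes were not tested. Few counts limit what can be said of Cldn1, Cldn6 and Cldn8.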
